A study of Mus musculus with 4 samples.

Results

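The 10 genes described here break down, make, dampen or report the second messenger cyclic AMP, and are taken from the 32286 features measured in sorted bone and marrow cells. They are the phosphodiesterase genes Pde3a, Pde3b, Pde4b, Pde4d, Pde7b and Pde10a, the adenylyl cyclase gene Adcy2, the G protein regulator gene Rgs2, and Crem and Sik1, which cyclic AMP itself induces. They were selected on their levels and on their immobilized-to-control ratios in these cells, so all values below describe these pools and none is a test of the choice.

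All mice were Tnfsf11tTA/+, with tTA, a transactivator that doxycycline blocks, in place at 1 Tnfsf11 allele. They also had the LC1 transgene, which gives tTA-dependent Cre, and a Cre-activated tdTomato at Rosa26, on the C57BL/6J strain. Tnfsf11 encodes RANKL, the cytokine that osteoclasts need to form, and tdTomato stays on in cells that used this locus and in their descendants. Doxycycline had kept the system off before birth in all animals. The immobilized pool held 6 animals with hindlimb immobilization for 2 weeks from 8 weeks of age, and the control pool held 4 animals without it. All were 10 weeks old. Live tdTomato+ cells without CD45.2 and Ter119 from femurs and tibias of both limbs were sorted into droplet 3' RNA-seq. Because the reporter reads the Tnfsf11 locus, a change in that locus could also change which cells were sorted, and this cannot be told apart here from a change within cells.

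With 1 pool per group there is no replicate of the comparison and no p-value. The 2 sequencing lanes of each pool share their cells and were averaged, so UMI (unique molecule) numbers can end in 0.5. Levels are UMIs per 1000000 UMIs of the class (CPM), summed over its cells, and ratios are log2 of immobilized over control with a pseudocount of 0.5 counts. All intervals are 95% and cover counting error only, neither the spread between cells nor that between animals. The lanes held 9960011 and 10084134 UMIs in the immobilized pool and 10732720 and 10860328 in the control pool, and 1386 immobilized and 1418 control cells were kept. Clusters named from marker genes gave 3 classes. CAR stromal-like cells, named for marrow reticular cells rich in Cxcl12, numbered 353 immobilized and 617 control cells. Osteo-primed stromal-like cells, with Wif1 and Limch1, numbered 352 and 212, and osteoblast-like cells numbered 467 and 471. Bglap was among the markers of osteoblast-like clusters 10, 11 and 12. Cluster 9, with 157 immobilized and 57 control cells, was named from Sp7, Ifitm5 and Smpd3 without Bglap. Levels of the defining genes were as follows. Cxcl12 stood at 14974 CPM in immobilized and 17750 CPM in control CAR stromal-like cells, against 61.8 and 61.9 CPM in osteoblast-like cells. Limch1 stood at 2422 and 1871 CPM in osteo-primed stromal-like cells, and Bglap at 9054 and 28588 CPM in osteoblast-like cells. Classes were also set from marker UMIs alone, with Wif1 and Limch1 put first. This made 182 of 353 immobilized and 181 of 617 control CAR stromal-like cells osteo-primed. It did so for 198 of 467 immobilized and 175 of 471 control osteoblast-like cells, so the classes overlap in these genes.

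Cyclic AMP is made by adenylyl cyclases when a hormone such as parathyroid hormone or a prostaglandin binds a receptor coupled to the stimulatory G protein. It activates protein kinase A, which phosphorylates the CREB family of transcription factors and inhibits the SIK kinases, and phosphodiesterases end the signal by breaking cyclic AMP down. In bone-forming and marrow stromal cells this pathway is one of the known routes to Tnfsf11 transcription. Several of its targets damp it in turn, among them phosphodiesterases, Rgs2 and the short repressor forms of Crem.

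In CAR stromal-like cells 9 of the 10 genes had a higher level in the immobilized pool, and the phosphodiesterase genes Pde3a and Pde3b stood furthest above the control. Of the 8 genes with at least 50 UMIs in 1 pool, 3 were at least 2-fold higher (Pde3a, Pde3b and Rgs2) and none was 2-fold lower. Over all 7791 genes with that count, 0.911% were at least 2-fold higher and 1.17% at least 2-fold lower, 2.08% in either direction. The interval lay above a ratio of 1 for 6 of the 8 genes, against 12.5% of all genes, and below it for 0, against 10.8%. The median log2 ratio was 0.76 over the 8 genes and 0.02 over all genes. As the members were chosen with these ratios in view, nothing is read from those counts.

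**Figure D1:**
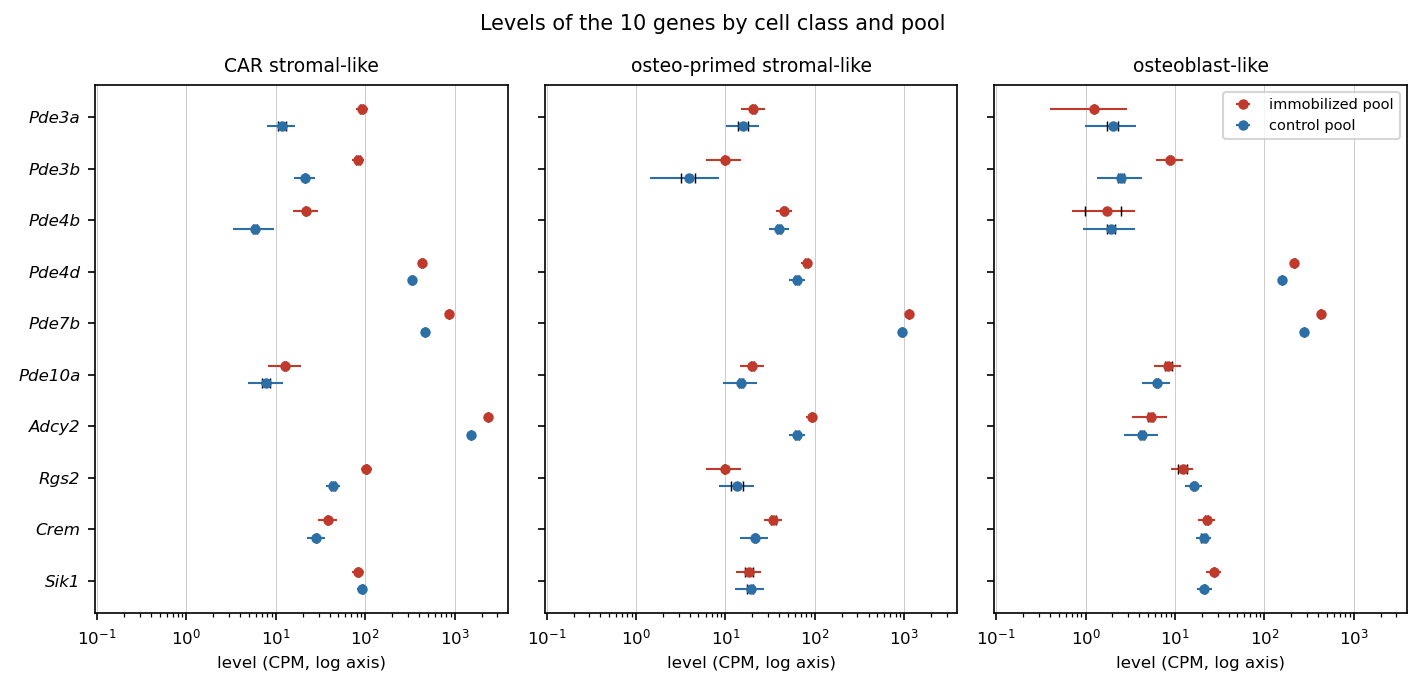
Level of each gene in CPM (log axis) in the 3 cell classes, immobilized pool in red above control pool in blue. Bars are 95% Poisson intervals and black ticks are the 2 lanes. In CAR stromal-like cells Pde3a stands at 91.3 CPM in the immobilized and 11.7 CPM in the control pool, while in osteoblast-like cells it stands at 1.24 and 2.02 CPM.

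Pde3a (ENSMUSG00000041741, chromosome 6, 141249269 to 141507448, plus strand of mm10) encodes a phosphodiesterase that cyclic GMP inhibits. Its lanes gave 94.9 and 87.8 CPM in the immobilized pool and 12.9 and 10.5 CPM in the control pool. The log2 ratio was 2.95 (2.41 to 3.56), a 7.71-fold higher level. A Pde3a UMI was found in 23.4% of immobilized cells (19.1 to 28.1) and 3.32% of control cells (2.05 to 5.06), and in 14.4% and 1.93% once every cell was thinned to 2000 UMIs, which left out 14.5 and 53.5 shallower cells. No Pde3a UMI was found in 108 immobilized and 71 control haematopoietic-like cells, which allows up to 3.36% and 5.06% of cells with a UMI and limits neither expression nor free RNA. Median depth in those cells was 2207 and 2967.5 UMIs, against 4440 and 3962.5 UMIs in CAR stromal-like cells. The 5 cells with the most Pde3a held 22.4% of its UMIs in the immobilized and 39.1% in the control class.

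Pde3b (chromosome 7, 114415281 to 114539251, plus strand), whose product lowers cyclic AMP downstream of insulin in fat cells, gave 86.7 and 79.8 CPM in the immobilized lanes and 21.0 and 21.4 CPM in the control lanes. The log2 ratio was 1.97 (1.53 to 2.44), and a UMI was found in 22.9% of immobilized and 6.24% of control cells. Haematopoietic-like cells also had the gene, with a UMI in 27.8% and 14.1% of cells. Granulocyte-like cells had 77.6 CPM in the immobilized and 23.6 CPM in the control pool, erythroid-like cells 190 and 45.8 CPM, and B lineage-like cells 506 and 110 CPM on 15 and 5.5 UMIs. Scaled by S100a8, whose CAR level was 0.422% and 0.140% of its granulocyte-like level, granulocyte RNA would bring 0.327 and 0.033 CPM of Pde3b into CAR stromal-like cells. For erythroid RNA the scale decides the value. With 5 erythroid membrane and cytoskeleton genes (0.613% and 0.427% of their erythroid-like level) it would bring 1.16 and 0.195 CPM. With Hbb-bs (85.7% and 79.2%) it would bring 163 and 36.2 CPM, more than the whole CAR level of 83.2 and 21.2 CPM. Hbb-bs stood at 299 and 117 CPM in erythroid-like cells, against 256 and 92.6 CPM in CAR stromal-like cells. The part of free RNA in the Pde3b difference was not tested. For Pde4b, which encodes a phosphodiesterase specific for cyclic AMP, the immobilized class had 21.5 CPM and the control class 5.84 CPM. Its log2 ratio of 1.86 (1.01 to 2.82) rests on 40 and 16 UMIs, short of the 50 asked for. Pde10a had 23.5 and 21.5 UMIs, and its interval (-0.22 to 1.60) held no difference.

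The remaining phosphodiesterase members differed less. Pde7b, which encodes a cyclic AMP-specific enzyme, gave 858 and 871 CPM in the immobilized lanes and 467 and 467 CPM in the control lanes (log2 ratio 0.89, 0.78 to 0.99). Pde4d, which spans 1504 kb of chromosome 13, gave 418 and 447 CPM in the immobilized lanes and 344 and 322 CPM in the control lanes (0.38, 0.24 to 0.52). Erythroid RNA would bring 12.3 and 4.25 CPM of Pde4d on the scale of the 5 erythroid genes, and 1724 and 789 CPM on the Hbb-bs scale. The Hbb-bs values exceed the whole CAR level of 432 and 333 CPM, and the part of free RNA was not tested. Lanes of a pool share their cells, so they show no spread between animals for any gene. All 6 phosphodiesterase members together stood at 1505 and 847 CPM (0.83, 0.75 to 0.91), and the 24 listed phosphodiesterase genes together at 2133 and 1474 CPM (0.53, 0.47 to 0.60). Without members, 9 phosphodiesterase genes had the count minimum, of which 2 had an interval above and 2 below a ratio of 1.

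Adcy2, which encodes an adenylyl cyclase (chromosome 13, 68620043 to 68999541, minus strand), had a larger share of its UMIs in CAR stromal-like cells than any other member, 94.4% in the immobilized and 95.3% in the control pool. Its lanes there gave 2378 and 2344 CPM in the immobilized pool and 1512 and 1522 CPM in the control pool (log2 ratio 0.64, 0.58 to 0.70). A UMI was found in 93.6% of immobilized and 91.7% of control cells, so the shares differed little. Osteo-primed stromal-like cells had 92.5 and 63.4 CPM of Adcy2, and osteoblast-like cells 5.33 and 4.24 CPM. In control cells the CAR level was thus 23.8-fold the osteo-primed one (19.6 to 29.5).

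Rgs2 (chromosome 1, 143999338 to 144004161, minus strand) encodes a GTPase-activating protein that shortens G protein signals. In CAR stromal-like cells its lanes gave 102 and 104 CPM in the immobilized pool and 46.3 and 41.0 CPM in the control pool. The log2 ratio was 1.23 (0.90 to 1.58), and 25.6% of immobilized and 10.2% of control cells had a UMI, or 14.5% and 5.62% after thinning. The ratio was under 2-fold with classes set from marker UMIs alone (0.66), in female cells (0.94) and in the 27 immobilized and 204 control cells without UMIs of haematopoietic marker genes (0.87), a subset added after seeing the data. It was 1.68 in male cells. Haematopoietic-like cells had higher Rgs2 than stroma in both pools, at 214 and 357 CPM with a UMI in 17.6% and 47.2% of cells. The same S100a8 scale gives 1.64 and 0.648 CPM of Rgs2 from granulocyte RNA. For erythroid RNA the scale again decides the value. It would bring 0.653 and 0.0434 CPM with the 5 erythroid genes, and 91.3 and 8.05 CPM with Hbb-bs. The whole CAR level was 103 and 43.7 CPM. The control erythroid-like level of Rgs2 rested on 1 UMI, and the part of free RNA in the Rgs2 difference was not tested.

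RefSeq promoter windows (GRCm38.p6) were scanned for 6 of the 10 genes, and Pde3a, Pde3b, Crem and Sik1 were not scanned. Upstream sequence is printed for Rgs2, which holds letters of the cyclic AMP response element, and for Adcy2, which does not. The capitals mark the core letters TGACG on either strand (CGTCA). Both sequences run 5' to 3' on the gene's strand and stop before the first annotated exon.
Rgs2, chr1:144004162-144004399, minus strand: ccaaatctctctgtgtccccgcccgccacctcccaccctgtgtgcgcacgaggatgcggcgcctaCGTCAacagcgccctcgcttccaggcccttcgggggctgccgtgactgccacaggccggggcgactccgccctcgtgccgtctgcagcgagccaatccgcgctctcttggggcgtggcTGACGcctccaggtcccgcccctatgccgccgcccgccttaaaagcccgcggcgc
Adcy2, chr13:68999542-68999791, minus strand: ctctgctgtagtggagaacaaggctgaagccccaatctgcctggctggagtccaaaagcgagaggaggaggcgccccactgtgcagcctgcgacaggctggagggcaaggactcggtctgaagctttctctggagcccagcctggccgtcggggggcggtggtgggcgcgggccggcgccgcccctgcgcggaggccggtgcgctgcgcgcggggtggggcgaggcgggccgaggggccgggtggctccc
The Rgs2 stretch has 2 such cores, starting 185 and 67 bases before the RefSeq start, and the Adcy2 stretch has 0. Among the 250 bases before each start, 17.8% of all 32851 windows hold a core and 1.55% the full site TGACGTCA, which contains it. Of the 10 member windows 2 hold a core (1 each of Rgs2 and Pde4b) and 0 the full site. These counts do not cover the genes left out of the scan, Crem among them. A match is a description of letters, not a site.

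Crem, whose gene also gives the inducible cyclic AMP early repressor, and Sik1, a kinase that restrains the CREB coactivators, were not past 2-fold in CAR stromal-like cells. Crem stood at 38.0 and 28.3 CPM (log2 ratio 0.42, -0.06 to 0.91). In the small subset without UMIs of haematopoietic marker genes, described above for Rgs2, its log2 ratio was 1.42, with no UMI number or interval given. Sik1 stood at 83.0 and 92.8 CPM (-0.16, -0.46 to 0.13), with a UMI in 30.9% and 27.7% of cells. Both intervals included no difference, and the Sik1 ratio was above 0 under 9 of 16 alternatives.

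**Figure D2:**
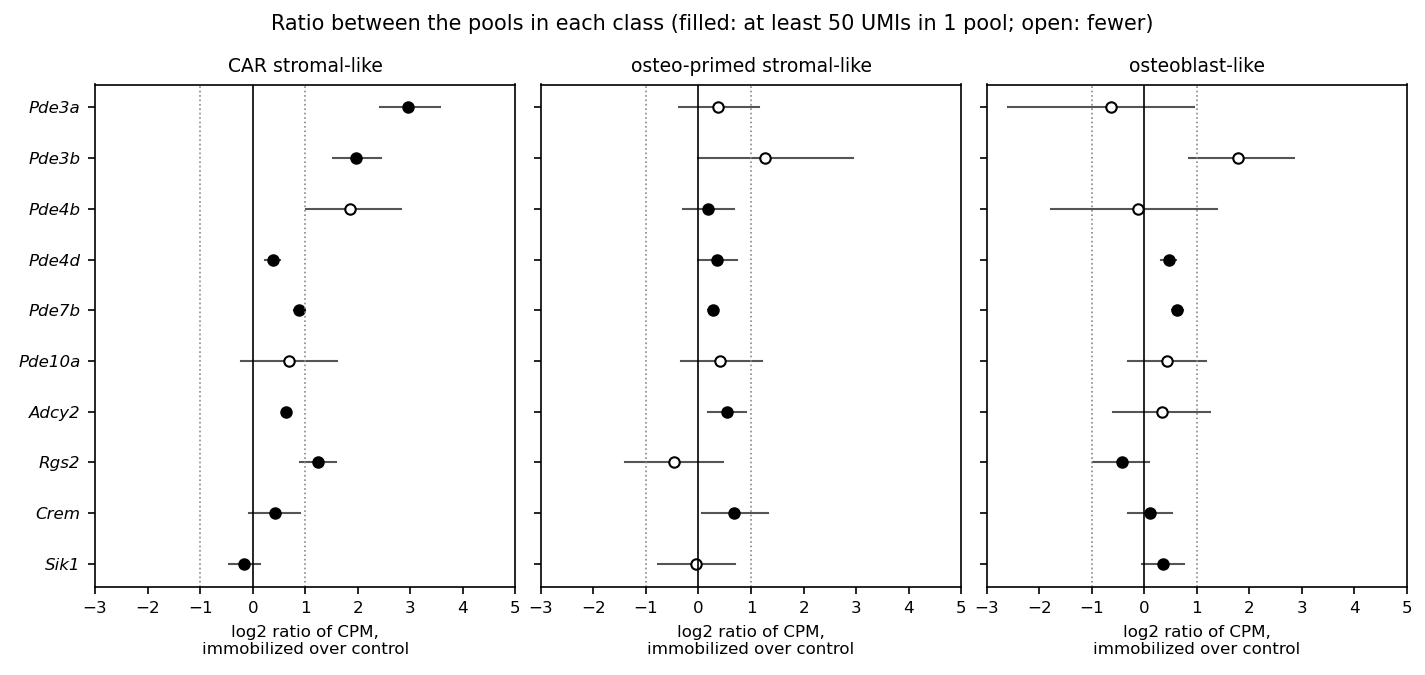
Log2 ratio of CPM, immobilized over control, for each gene in the 3 classes, with 95% binomial intervals. Filled points have at least 50 UMIs in 1 pool and open points fewer, and dotted lines mark 2-fold. Pde3a, Pde3b and Rgs2 lie beyond 2-fold in CAR stromal-like cells, and no filled point does in the other classes.

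CAR stromal-like cells were not 1 population, and the clusters took different shares of the pools. Cluster 1, led by Lrrn1 and Igfbp3, held 212 immobilized and 209 control cells, cluster 3, led by Nrg3, held 73 and 206, and cluster 13, with Kit and Cxcl14, held 30 and 119. Cluster 0, led by the lipid genes Fabp4 and Scd1, held 35 and 34, and cluster 7, led by Cxcl1 with Nr4a3 and Icam1, held 3 and 49. Pde3a was higher in the immobilized pool in both large clusters, at 107 and 26.9 CPM in cluster 1 (log2 ratio 1.97) and 147 and 7.52 CPM in cluster 3 (4.20). It had no UMI in cluster 0 in either pool. Pde3b was present there, at 188 and 102 CPM, and stood at 121 and 13.4 CPM in cluster 3 (3.13). Rgs2 stood at 109 and 22.7 CPM in cluster 1 (2.23) and 107 and 22.0 CPM in cluster 3 (2.27), while cluster 13 had 103 and 49.0 CPM. The 49 control cells of cluster 7 had 198 CPM of Rgs2 and 234 CPM of Sik1. Without cluster 7, an alternative added after seeing the data, the log2 ratio of Rgs2 was 1.72, that of Pde3a 2.87 and that of Sik1 0.01. With both pools at 1 cluster mix the values were 1.51, 2.63 and 0.05.

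Pde4d parted by cluster. Its log2 ratio was 0.95 in cluster 1 and 1.16 in cluster 3, at 364 and 188 CPM and at 708 and 317 CPM, but -0.73 in cluster 0, at 368 and 612 CPM. Adcy2 had a log2 ratio of 0.79 in cluster 3 and -0.30 (-0.61 to 0.01) in cluster 0.

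**Figure D3:**
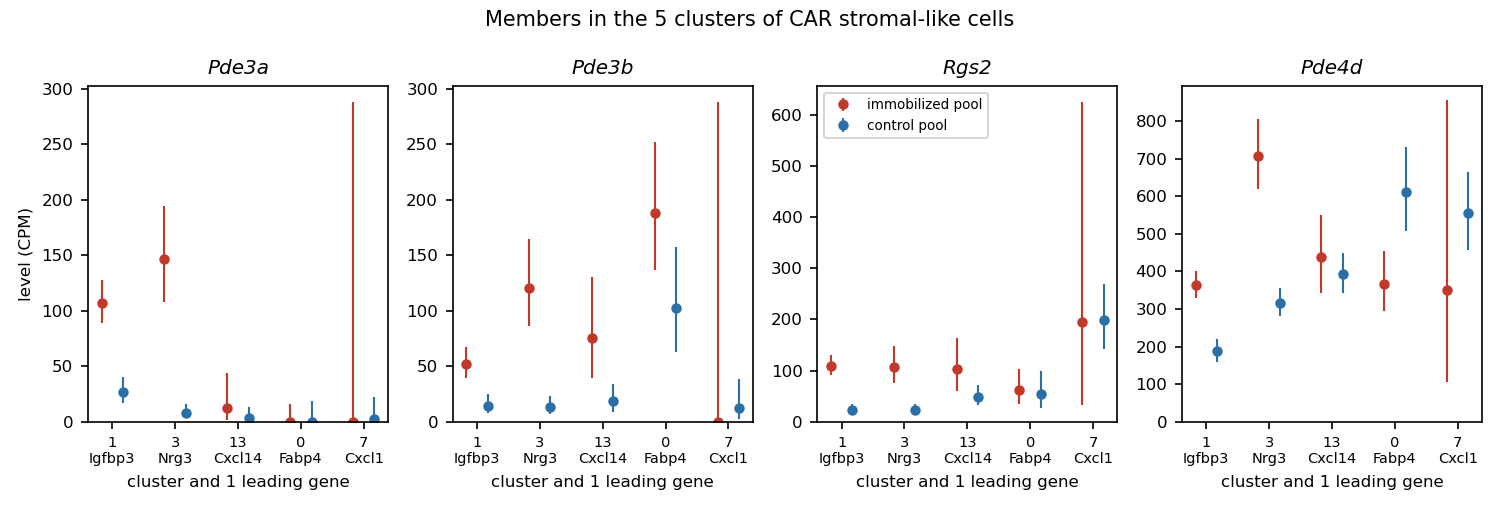
Level in CPM of 4 genes in the 5 clusters of CAR stromal-like cells, immobilized pool left of control pool, with 95% Poisson intervals. Cluster 7 has 3 immobilized cells, so its immobilized interval is wide. Pde3a is higher in the immobilized pool in clusters 1 and 3 and at 0 in cluster 0, and Pde4d is lower there.

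The pools differed in the sex of their cells, with 30.4% female among sexed immobilized and 50.9% among sexed control CAR stromal-like cells. Within each sex Pde3a was higher in the immobilized pool. Female cells had 96.6 CPM in the immobilized and 5.33 CPM in the control pool (log2 ratio 4.10, 3.02 to 5.57). These levels rest on 46 and 7 UMIs, short of the 50 asked for. Male cells had 95.4 and 18.4 CPM (2.35, 1.70 to 3.10) on 113 and 22 UMIs. The log2 ratio of Pde3b was 2.15 in female and 2.04 in male cells, and that of Pde7b 0.89 and 1.16. Sex was called from the expression of sex-linked genes, since the labels used here do not give it.

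Other RNA moved with the pools in CAR stromal-like cells, and its part in the results was not tested. The dissociation and stress list was lower in the immobilized pool, with 12 of 19 measured genes at least 2-fold lower, 18 of 19 with an interval below a ratio of 1 and a median log2 ratio of -1.23. The free haematopoietic RNA list was higher, with 5 of 8 genes at least 2-fold higher, among them Hbb-bs at 256 and 92.6 CPM. S100a8 stood at 113 and 92.1 CPM. The 9 adipocyte markers together stood at 1421 and 269 CPM, with Pck1 at 0 in both pools, and the 10 pericyte or smooth muscle markers at 260 and 233 CPM, with none at 0. The long nuclear RNA Malat1 stood at 27835 and 36600 CPM. Genes spanning at least 200 kb, as Pde3a, Pde4b, Pde4d, Pde7b, Pde10a and Adcy2 do, had a median log2 ratio of 0.13 over 562 genes. Of these long genes 2.67% were at least 2-fold higher and 1.60% at least 2-fold lower, against 0.911% and 1.17% of all genes.

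Tnfsf11 itself stood at 219 and 90.4 CPM in CAR stromal-like cells (log2 ratio 1.28, 1.05 to 1.51). Cells of the immobilized pool with a Tnfsf11 UMI (172 cells) had 141 CPM of Rgs2 and those without (181 cells) 60.9 CPM, a log2 ratio of 1.20 (0.74 to 1.69). Of the 10 members, 4 had an interval above 0 in this comparison in the immobilized pool. Besides Rgs2 these were Pde4d (0.70, 0.49 to 0.91), Pde7b (0.30, 0.16 to 0.45) and Adcy2 (0.28, 0.19 to 0.36). Pde3a did not differ beyond counting error, at 91.1 and 91.6 CPM (-0.01, -0.46 to 0.44). In the control pool Pde7b (0.54, 0.36 to 0.71) and Pde4d (0.25, 0.03 to 0.46) were higher in cells with a Tnfsf11 UMI, and Pde3b (-1.06, -2.47 to -0.02) was lower. Rgs2 had 34.9 CPM with and 46.5 CPM without there (-0.39, -1.13 to 0.25), and Adcy2 a log2 ratio of -0.06 (-0.16 to 0.04). Cells with a Tnfsf11 UMI were deeper than those without, at medians of 4955 and 4043 UMIs in the immobilized and 4364 and 3794 UMIs in the control pool. The split was not made within clusters. The share of all genes that differed in this split was not computed, so nothing is read from the number of members.

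In osteo-primed stromal-like cells none of the 5 members with 50 UMIs was past 2-fold, where 0.736% of all 6662 genes were 2-fold higher, 0.705% lower and 1.44% either. Pde7b, which was highest in this class, stood at 1145 CPM in the immobilized and 945 CPM in the control pool (log2 ratio 0.28, 0.18 to 0.37). Intervals lay above a ratio of 1 for 3 of the 5, against 12.2% of all genes. Besides Pde7b these were Adcy2 (0.54, 0.19 to 0.91) and Crem, at 34.3 and 21.4 CPM (0.67, 0.08 to 1.32). The Adcy2 ratio was -0.08 with the looser cell filter, -0.08 without cells that had haematopoietic UMIs, and 0.14 (-0.37 to 0.65) in female against 0.64 (0.10 to 1.23) in male cells. Of sexed cells in this class 55.1% were female in the immobilized and 66.5% in the control pool. The dissociation and stress list was lower here too, with 15 of 20 intervals below a ratio of 1, and free haematopoietic RNA was higher in 3 of 4 genes; their part in the values was not tested. Pde4b was higher here than in CAR stromal-like cells in both pools, at 45.3 and 39.8 CPM (0.18, -0.29 to 0.67), and Pde4d stood at 81.3 and 63.4 CPM (0.35, -0.01 to 0.73). The other members had fewer UMIs. Pde3a stood at 20.6 and 15.9 CPM (0.36, -0.36 to 1.15) and Rgs2 at 9.84 and 13.6 CPM (-0.47, -1.40 to 0.47). In immobilized cells the CAR level of Pde3a was 4.40-fold the osteo-primed one (3.17 to 6.30), and in control cells it was 0.73-fold (0.42 to 1.30).

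Over genes with 50 UMIs in each pool, osteoblast-like cells had a median log2 ratio of 0.21. Ratios and intervals in this class include that shift unless a value after removing it is given. None of the 5 members with the count was past 2-fold, where 2.47% of all 8005 genes were 2-fold higher, 0.725% lower and 3.2% either. Intervals lay above a ratio of 1 for 2 of the 5, Pde7b and Pde4d, against 37.7% of all genes. Pde7b stood at 428 and 277 CPM (log2 ratio 0.63, 0.53 to 0.73, and 0.42 after removing the shift) and Pde4d at 217 and 157 CPM (0.46, 0.33 to 0.60, and 0.25). Rgs2 stood at 12.2 and 16.4 CPM (-0.43, -0.97 to 0.09), Crem at 22.6 and 20.9 CPM (0.11, -0.31 to 0.52) and Sik1 at 27.3 and 21.3 CPM (0.36, -0.04 to 0.75). The Rgs2 interval included no difference but lay below the class median of 0.21. Genes spanning at least 200 kb, Pde7b and Pde4d among them, had a median of 0.54 over 515 genes in this class. Of these long genes 8.93% were at least 2-fold higher and 0.194% at least 2-fold lower. Pde3b, at 8.81 and 2.51 CPM (1.78, 0.86 to 2.85), had only 35.5 and 13 UMIs. Pde3a had 5 and 10.5 UMIs.

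The clusters of osteoblast-like cells took different shares of the pools. Cluster 9 held 157 of the immobilized and 57 of the control cells, and cluster 12 held 51 and 134. In cluster 9 the log2 ratio of Pde4d was -0.04 (-0.44 to 0.39) and that of Pde7b 0.19 (-0.06 to 0.45), against 0.69 (0.47 to 0.92) and 0.72 (0.54 to 0.90) in cluster 10. With both pools at 1 cluster mix Pde4d was 0.40, Pde7b 0.46, Sik1 0.62 and Rgs2 -0.01. Of sexed cells 77.8% were female in the immobilized and 93.3% in the control class. Pde4d was 0.48 (0.32 to 0.63) in female and 0.04 (-0.37 to 0.48) in male cells, and it was 0.17 without cells that had haematopoietic UMIs. Sik1 was 0.56 (0.14 to 0.98) in female and -0.49 (-1.86 to 1.22) in male cells. Rgs2 was -0.61 (-1.26 to -0.02) in female and 3.16 in male cells, the latter on 15 against 0 UMIs. The dissociation and stress list had 16 of 21 intervals below a ratio of 1 and free haematopoietic RNA 4 of 4 above it in this class, and their part in the values was not tested.

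The order of the classes differed by gene. Pde4d was highest in CAR stromal-like cells, 1.99-fold the osteoblast-like level in the immobilized pool (1.81 to 2.19) and 2.12-fold in the control pool (1.92 to 2.33), and lowest in osteo-primed stromal-like cells. Pde7b ran osteo-primed, CAR, osteoblast-like from high to low in both pools. Pde4b had its highest level in osteo-primed stromal-like cells, 24.5-fold the osteoblast-like one in the immobilized (12.2 to 66.6) and 19.8-fold in the control pool (10.5 to 45.2). That level rests on few cells, as 5 cells held 51.0% of its osteo-primed UMIs in the immobilized and 52.8% in the control pool. Rgs2 was 10.2-fold higher in CAR than in osteo-primed stromal-like cells in the immobilized pool (6.68 to 17.2) and 3.15-fold higher in the control pool (2.01 to 5.38). Its osteo-primed and osteoblast-like levels did not differ beyond counting error in either pool. For Sik1 these CAR to osteo-primed folds were 4.43 (3.15 to 6.49) and 4.79 (3.31 to 7.38), and for Pde3b 8.29 (5.37 to 14.0) and 5.08 (2.36 to 15.5). Crem did not differ between CAR and osteo-primed stromal-like cells beyond counting error, at 1.11-fold (0.79 to 1.55) and 1.31-fold (0.87 to 2.06).

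Among the other genes of the cyclic AMP pathway, 82 had the count minimum in CAR stromal-like cells. Of these 2 were at least 2-fold higher (2.44%) and 5 at least 2-fold lower (6.10%), against 0.911% and 1.17% of all genes. An interval lay above a ratio of 1 for 14 and below it for 18, against 12.5% and 10.8% of all genes. The median log2 ratio of the 82 was -0.02. The higher ones were Tnfsf11 and Vdr, the vitamin D receptor gene, which stood at 302 and 55.5 CPM (2.44, 2.18 to 2.71). The lower ones were Fosb (-1.41), Dusp1 (-1.28), Junb (-1.26), Fos (-1.23) and Btg2 (-1.01), all also on the dissociation and stress list. Nr4a1, another cyclic AMP target, stood at -0.99. Chosen after their values were seen, the parathyroid hormone receptor gene Pth1r stood at 99.1 and 133 CPM (-0.42, -0.69 to -0.16), Gnas, the stimulatory G protein gene, at 495 and 573 CPM (-0.21, -0.33 to -0.09), and Sik2 at 131 and 99.5 CPM (0.40, 0.14 to 0.65).

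**Figure D4:**
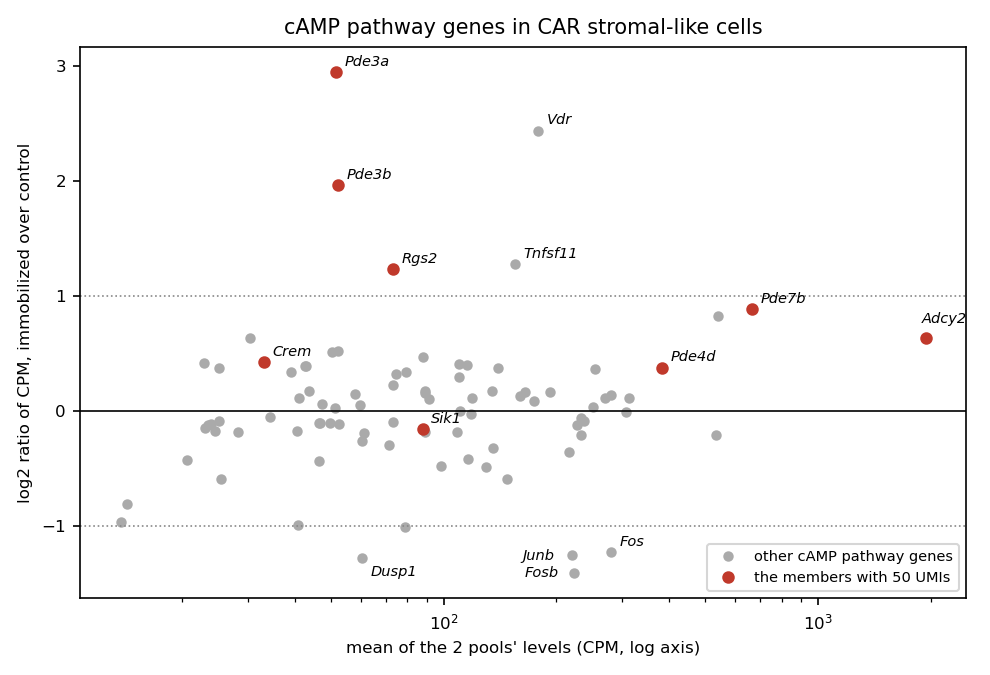
Log2 ratio of CPM, immobilized over control, against mean level (log axis) for 90 genes of the pathway lists with the count minimum in CAR stromal-like cells, 8 members in red and 82 others in grey. Pde3a (2.95), Vdr (2.44) and Pde3b (1.97) lie highest, and Fosb (-1.41) lowest.

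In osteo-primed stromal-like cells 72 other pathway genes had the count. Of these 1 was 2-fold higher, the phosphodiesterase gene Pde1c (44.9 and 19.1 CPM, 1.22), and 1 lower, the GTPase gene Gem (-1.31). Over all genes 0.736% were 2-fold higher and 0.705% lower. Of the 72 genes 8 had an interval above and 9 below a ratio of 1, against 12.2% and 10.0% of all genes. Per1 (0.64), Wnt4 (0.60) and S1pr3 (0.48) came next above, and Fos (-0.56), Junb (-0.43), Cebpb (-0.39), Cited2 (-0.35) and the inhibitory G protein gene Gnai2 (-0.35) next below. In osteoblast-like cells there were 76, with 3 higher, the receptor gene Lgr6 (2.06), the collagenase gene Mmp13 (1.55) and the clock gene Per1 (1.18), and 2 lower, Gem (-1.12) and Adgrg6 (-1.05), a receptor gene. There 32 of the 76 intervals lay above and 13 below a ratio of 1, against 37.7% and 11.9% of all genes in the class. The median log2 ratio of the 76 was 0.25, against 0.20 over all genes with the count. Over all genes 2.47% were 2-fold higher and 0.725% lower. Rgs12 (0.93), Creb1 (0.78) and the kinase anchor gene Akap10 (0.75) came next above, and Rgs7 (-0.83), Btg2 (-0.76), Wnt4 (-0.71) and Junb (-0.71) next below.

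Across the 27 cluster-by-pool sums with at least 20 cells, the genes most like Pde3a among 7794 were Clstn2 (r = 0.84), Gm10389 (0.78) and Cdh18 (0.77), and those most like Rgs2 were Vav3 (0.91), Arhgdib (0.88) and G6pdx (0.87). These points share pools and depth, and no p is given. They cover all cell types, granulocyte-like, erythroid-like and cycling cells among them, not only stromal and osteoblast-like cells. In granulocyte-like cells Rgs2 stood at 388 CPM in the immobilized and 463 CPM in the control pool, and Pde3a had no UMI. The part of such differences between blood and stromal cells in the r values was not tested. Rgs2 and Pde3a had r = -0.03 with each other.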

How the data were processed

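Droplet 3' RNA-seq counts were deposited by the authors as raw UMI counts per gene and barcode, made with Cell Ranger 7.0.0 on mm10 per the submitters' processing notes. Whether intronic reads were counted is not stated by the labels used here. Of 32286 features, 32158 matched GENCODE vM21 on GRCm38. Cells needed 500 genes and a mitochondrial share below 10%, and Scrublet doublets (16 immobilized and 8 control, 0.916% and 0.495%) were removed. Cells of both pools were clustered together (scanpy 1.11.5, 2000 variable genes, 30 components, 15 neighbours, Leiden resolution 1.0). A marker counted when over 2-fold above all other cells and in at least 10% of the cluster, and a name needed 3 markers and 30% of the list. CAR stromal-like clusters were 0, 1, 3, 7 and 13, osteo-primed 2 and 4, osteoblast-like 9 to 12; cluster 9 took its name on 3 markers. Between lanes the chi-square averaged 0.586 per gene in the immobilized and 0.534 in the control pool, under the 1 of independent sampling, so lanes count as 1 sample; 3 barcodes were shared by the pools. Intervals are exact: conditional binomial for ratios, Poisson for levels and Clopper-Pearson for shares, and the ratio code was tested on simulated counts. Members and gene lists were chosen with earlier results of these data known. Named genes were all members, Tnfsf11, up to 6 highest and 6 lowest pathway genes per class with an interval without 1, and the 3 genes most like Pde3a and Rgs2. Alternatives covered scaling, lanes, cell filters, doublets, clustering, sex, cluster mix and count minimum.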

Additional observations from a re-analysis of the deposited data

Results flagged for a closer look

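Rgs2 differed in direction between classes in both lanes, which share their cells. Its log2 ratio was 1.23 in CAR stromal-like and -0.43 in osteoblast-like cells. The osteoblast-like interval of Rgs2 included no difference but lay below the class median of 0.21. In this class the Rgs2 ratio was -0.61 (-1.26 to -0.02) in female cells and 3.16 in male cells, the latter on 15 against 0 UMIs. With both pools at 1 cluster mix it was near no difference. Sik1 differed likewise, at -0.16 and 0.36, and both of its intervals included no difference. The Sik1 ratio in CAR stromal-like cells was above 0 under 9 of 16 alternatives. In osteoblast-like cells, where 77.8% of sexed cells were female in the immobilized and 93.3% in the control pool, it was 0.56 in female and -0.49 in male cells. These differences between classes were not tested.

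Outside the 3 classes, Pde4d was higher in the immobilized pool in granulocyte-like cells (1406 and 351 CPM, log2 ratio 2.00, 1.58 to 2.44, 49 and 43 cells). It was also higher in endothelial-like cells (1034 and 428 CPM, 1.26, 0.73 to 1.84, 17 and 9 cells) and erythroid-like cells (2012 and 997 CPM, 1.01, 0.69 to 1.35, 44 and 11 cells). In cycling cells its interval included no difference (0.39, -0.20 to 0.99). Only intervals above a ratio of 1 were flagged, so no lower level could appear. Pde7b was lower in cycling cells (403 and 609 CPM, -0.60, -0.92 to -0.27). Granulocyte-like cells also differed in S100a8, at 26673 and 65879 CPM. The share of all genes was not computed for these cell types.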

How the results depend on the processing

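Over the members with the count minimum and 17 alternatives, 227 of 273 ratios stayed inside the interval of the value reported, 25 moved up and 21 down, and no 2-fold call changed sign. In CAR stromal-like cells the number past 2-fold was between 2 and 4 against 3. In osteo-primed stromal-like cells it was 1 in male cells (Pde4b) and 1 with a count minimum of 10 or none (Pde3b), against 0. In osteoblast-like cells it was 1 in male cells (Rgs2, 15 against 0 UMIs) and 1 with a count minimum of 10 or none (Pde3b), against 0. Each lane alone gave 3, 0 and 0. Rgs2 in CAR stromal-like cells ranged over these alternatives from 0.66 with classes from marker UMIs alone to 1.94 with the looser cell filter. Pde3a there ranged from 2.35 in male to 4.10 in female cells, the latter on 46 and 7 UMIs. Sik1 there was above 0 under 9 of 16 alternatives. Leaving out cells with haematopoietic UMIs, chosen after seeing the data, kept 27 immobilized and 204 control CAR stromal-like cells. It gave 3.86 for Pde3a, 1.68 for Pde3b, 0.87 for Rgs2, 1.42 for Crem, 1.07 for Adcy2 and 0.63 for Pde7b. Shallower cells pass this filter more readily, and UMI numbers, depth and intervals of the subset are not given. These ratios are therefore not estimates freed of haematopoietic RNA. No paired analysis was possible because the replicate numbers are lanes of 1 library and no test was run. Counts were under the minimum for Pde10a in all 3 classes, Pde4b in CAR stromal-like and osteoblast-like cells, Pde3a and Pde3b outside CAR stromal-like cells, Rgs2 and Sik1 in osteo-primed stromal-like cells, and Adcy2 in osteoblast-like cells.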

Other observations

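Pde3a stood highest in the few pericyte or smooth muscle-like cells, at 533 CPM in 5 immobilized and 1379 CPM in 7 control cells (log2 ratio -1.34, -2.26 to -0.57), opposite in direction to CAR stromal-like cells.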
